A study of Schizosaccharomyces pombe with 6 samples.

Results

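The canonical histone genes hta1 (H2A) and htb1 (H2B) on chromosome III, and hhf2 (H4) and hht2 (H3) on chromosome II, form 2 divergently transcribed pairs in the fission yeast Schizosaccharomyces pombe. The probes whose midpoints lay inside these 4 genes or within 2 kb of them were taken from the array design. They numbered 43 of 42707 probes, 14 of them inside the genes, and the 4 genes were among 8196 annotated genes with at least 2 probes. hta1 held 4 probes, htb1 5, hhf2 2 and hht2 3, and the remaining 29 lay in the flanks.

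Per the series title, the arrays measured Ssb1, the large subunit of the single-stranded DNA binding protein RPA, by chromatin immunoprecipitation in cells treated with 6 mM hydroxyurea (HU). The group named WT (3 arrays) was a cdc25-22 strain and the group named rad3∆ here (3 arrays) was a cdc25-22 rad3∆ strain, so that the temperature-sensitive cdc25-22 allele and HU were shared by all arrays and no array held untreated cells. Cells grew at 25 °C, were blocked for 4 h at 36.5 °C and received HU after their return to 25 °C. Each array compared immunoprecipitated material (IP) with its own input. The labels give the molecule as total RNA, and the values were read as IP over input DNA because of the channel names. The input label of rad3∆ array 3 gives the allele as cdc25-23, all titles carry the number 60 without a unit, and the labels do not say whether the 3 arrays of a strain came from separate cultures, so p-values measure only the spread between these arrays.

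Histone genes are transcribed in S phase, when new chromatin needs histones in step with new DNA, and H2A pairs with H2B while H3 pairs with H4 in the nucleosome. HU starves replication forks of deoxyribonucleotides, RPA coats the single-stranded DNA that such forks expose, and the checkpoint kinase Rad3, the fission yeast relative of ATR, is recruited to RPA-coated DNA. In fission yeast the divergent promoters of the core histone genes carry a conserved AACCCT box, to which the GATA-type factor Ams2 binds, and the S-phase factor MBF binds a different element, the MCB (ACGCGT).

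The 2 intergenic promoters are shown because they are what the pairs share in sequence, while their RPA levels, described below, lay far apart. They run from the base after the transcript start of the left gene to the base before that of the right gene, chrIII:1412182-1412358 (177 bases) and chrII:1364985-1365118 (134 bases), plus strand of the RefSeq assembly ASM294v3. Capitals mark the tandem AACCCT box, which reads as 2 adjoining copies of AGGGTT on this strand, and the MCB.
hta1-htb1: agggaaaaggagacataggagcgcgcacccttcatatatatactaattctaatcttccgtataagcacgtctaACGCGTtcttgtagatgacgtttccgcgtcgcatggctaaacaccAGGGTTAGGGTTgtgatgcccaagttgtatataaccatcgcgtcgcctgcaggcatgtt
hhf2-hht2: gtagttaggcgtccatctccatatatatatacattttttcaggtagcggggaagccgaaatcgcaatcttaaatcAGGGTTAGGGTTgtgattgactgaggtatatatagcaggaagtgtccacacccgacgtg

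Each promoter held 1 tandem box, and in both it ended 48 bases before the annotated transcript start of the right-hand gene (htb1 or hht2). The longest run of bases common to both promoters was the 18 bases cAGGGTTAGGGTTgtgat, which is the box with a short flank. The tandem box, searched as 2 adjoining copies of AACCCT on both strands, occurred in the 177 bases upstream of 19 of 5112 protein-coding genes (0.372%), and 9 of these 19 were core histone genes. A single AACCCT was found upstream of 6.14% of genes in windows of 177 bases, and it lies within every tandem box. The MCB, searched as ACGCGT on both strands (it reads the same on both), was present in the hta1-htb1 promoter alone of these 2, and upstream of 2.05% of genes in windows of 177 bases and 1.68% in windows of 134 bases. Of the 10 other genes with a tandem box, 5 were measured. Their median fitted log2(IP/input) was -0.72 in WT and -0.53 in rad3∆, with 3 depleted and 0 enriched in each strain, so the box occurred at genes on both sides of the array median. These matches describe letters in the reference sequence, and binding of Ams2 or MBF was not measured.

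Levels are given as log2(IP/input) with the median nuclear probe of each array at 0, so that 0 does not mean absence of RPA. They average over the cells of a culture, and fewer cells with RPA at a gene cannot be told apart from less RPA there per cell. To be called enriched, a gene, window or probe needed a fitted level no lower than 0.5 on the log2 scale (1.41-fold) and a Benjamini-Hochberg adjusted p under 0.05 (limma across all features). Depletion was called with the same p at -0.5 or lower. The median background-subtracted IP signal ranged from 41.4 on rad3∆ array 2 to 1143 on rad3∆ array 3, and rad3∆ array 2 had 79.6% of its IP probes well above background, the lowest share. Over the 33 probes of the deleted rad3 gene, the median input level (log2, array median at 0) was -0.40 to -0.17 in WT and -7.28 to -4.97 in rad3∆, where 9 of 33 probes were well above background on each array.

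In the fitted levels, RPA signal was high over both genes of the H2A-H2B pair and at or below the array median over those of the H4-H3 pair. Averaged over its genes' probes, the H4-H3 pair read above the median on 3 of 6 arrays (0.055 on WT array 1, 0.23 on WT array 2 and 0.27 on rad3∆ array 2). hta1 (SPCC622.08C, chromosome III, 1411144 to 1412181, minus strand) encodes one of 2 canonical H2A proteins. In WT it read 0.78 on array 1, 0.91 on array 2 and 1.31 on array 3, and in rad3∆ 0.63, 0.82 and 0.75 in the same order. Every array was well above its median, WT array 3 was the highest, and the strains overlapped. The fitted level was 1.04 ± 0.10 in WT (SE, n = 3; adjusted p = 0.00015 with limma) and 0.77 ± 0.10 in rad3∆ (adjusted p = 0.00034 with limma). Each fitted SE here and below rests on a spread shared by all 6 arrays after the dye term, which limma also draws toward that of other genes. It is not the SE of 3 arrays alone. The SD of the 3 hta1 values was 0.27 in WT and 0.10 in rad3∆. hta1 was enriched in both strains, against 17.7% of all genes in WT and 18.2% in rad3∆. Only 79 genes (0.964%) had a higher fitted level in WT, and 461 (5.62%) in rad3∆.

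htb1 (SPCC622.09, chromosome III, 1412359 to 1413677, plus strand) encodes H2B and is the sole H2B gene listed. It read 0.72, 0.75 and 0.90 on the WT arrays and 0.27, 0.65 and 0.47 on the rad3∆ arrays. The 3 WT values lay close together and all rad3∆ values lay below them. The fitted level was 0.80 ± 0.10 in WT (SE, n = 3; adjusted p = 0.00028 with limma), which 386 genes (4.71%) exceeded, and htb1 was enriched there. In rad3∆ it was 0.48 ± 0.10 (adjusted p = 0.0034 with limma), above the array median but just short of the 0.5 threshold, and 1600 genes (19.5%) were higher. Without rad3∆ array 1 the rad3∆ level was 0.56 and was called enriched, as it was with the median of its probes (0.52).

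hhf2 (SPBC8D2.03C, chromosome II, 1364189 to 1364984, minus strand) encodes H4, whose protein is also made from hhf1 and hhf3. It read -0.06, 0.74 and -0.41 on the WT arrays and -0.05, 0.65 and -0.76 on the rad3∆ arrays. The values followed the slide and not the strain: both arrays of slide 2 were high, both of slide 3 were low, and both of slide 1 were near 0. Only slide 3 had IP in the red dye channel, so slide and dye orientation cannot be told apart for its low values. The SD over the 3 arrays was 0.59 in WT and 0.70 in rad3∆. The fitted level was -0.06 ± 0.18 in WT and -0.20 ± 0.18 in rad3∆ (SE, n = 3; adjusted p = 0.78 and 0.34 with limma), with no call, and the WT level was positive under several alternatives (0.11 with loess). Of its 2 probes, the one at 1364346 in the 3′ UTR was dim, well above background in the IP on 2 of 6 arrays, and ranged from -1.26 to 1.22 over the 6 arrays. The other, at 1364840 in the 5′ UTR, ranged from -0.25 to 0.58.

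hht2 (SPBC8D2.04, chromosome II, 1365119 to 1365818, plus strand) encodes H3, which hht1 and hht3 also encode. It read 0.17, -0.28 and -0.53 on the WT arrays and -0.56, -0.11 and -0.85 on the rad3∆ arrays. WT array 1 was the only array above its median, and the strains overlapped. The fitted level was -0.29 ± 0.12 in WT (SE, n = 3; adjusted p = 0.065 with limma), not called. In rad3∆ it was -0.59 ± 0.12 (adjusted p = 0.003 with limma), and hht2 was depleted there, against 20.6% of all genes. That call was lost without rad3∆ array 1 (-0.48), without rad3∆ array 3 (-0.57, adjusted p = 0.069 with limma) and with the median of its probes (-0.40).

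**Figure D1:**
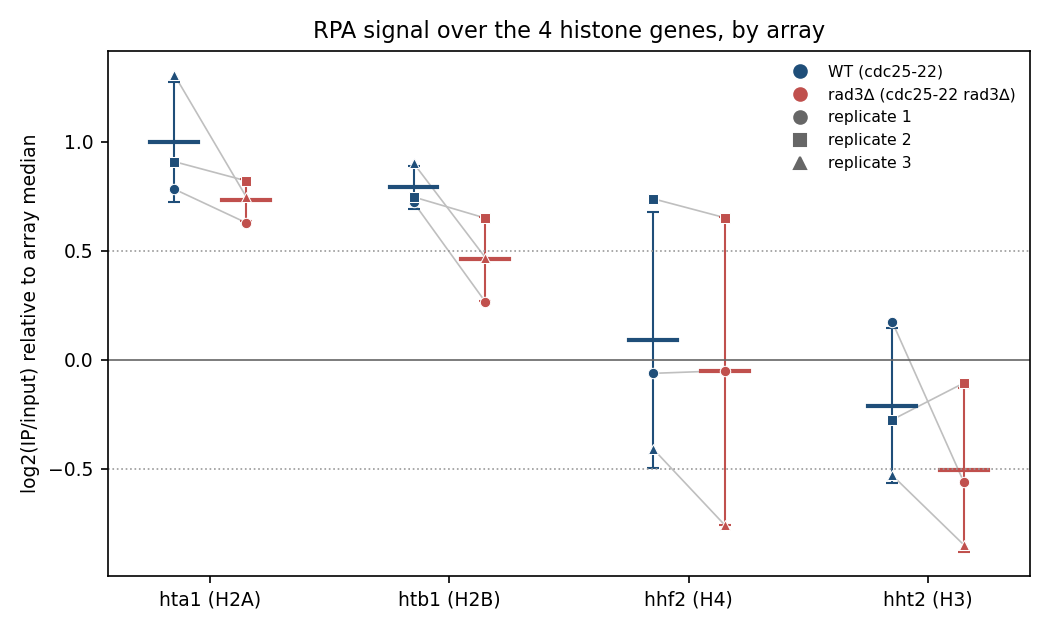
log2(IP/input), array median at 0 (y axis), for the 4 histone genes (x axis) in WT (blue) and rad3∆ (red), with the mean and SD of 3 arrays per strain; marker shapes give the replicate, grey lines join arrays of one slide, and dotted lines lie at 0.5 and -0.5. All hta1 and htb1 values are above 0, the hhf2 values of slide 2 are 0.74 and 0.65, and the rad3∆ values of htb1 (0.27 to 0.65) lie below its WT values (0.72 to 0.90).

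In the fitted levels the order was hta1, htb1, hhf2, hht2 in both strains. hta1 exceeded htb1 on 6 of 6 arrays, by 0.24 ± 0.13 (SD over 6 arrays, range 0.06 to 0.41). htb1 exceeded hhf2 by 0.61 ± 0.59 and hhf2 exceeded hht2 by 0.38 ± 0.47, each on 5 of 6 arrays, so the last of these steps was smaller than its own spread and htb1 and hhf2 were level on slide 2. Averaged over the genes' probes, the H2A-H2B pair exceeded the H4-H3 pair on every array. In WT the excess came to 0.70, 0.60 and 1.57, and in rad3∆ to 0.75, 0.46 and 1.41, largest on slide 3 in both strains. As slide 3 alone had IP in the red dye channel, slide and dye orientation cannot be told apart for that larger excess.

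Genome-wide, the fitted levels placed the 4 genes on both sides of the distribution. Their median was 0.37 in WT and 0.14 in rad3∆, beside -0.00 and 0.00 over all genes, with 2 enriched and 0 depleted in WT and 1 enriched and 1 depleted in rad3∆. In WT 21.1% of all genes were depleted. The 2 pairs lie on different chromosomes, and whether levels differed by chromosome was not tested. Of the measured chromosome III genes in the comparison lists below, nap1, mcm3, tpi1, tef3 and adh1 were enriched in WT (0.59 to 0.86). The others there, asf1, ams2, mcm4 and rad21, were not (-0.28 to 0.34).

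**Figure D2:**
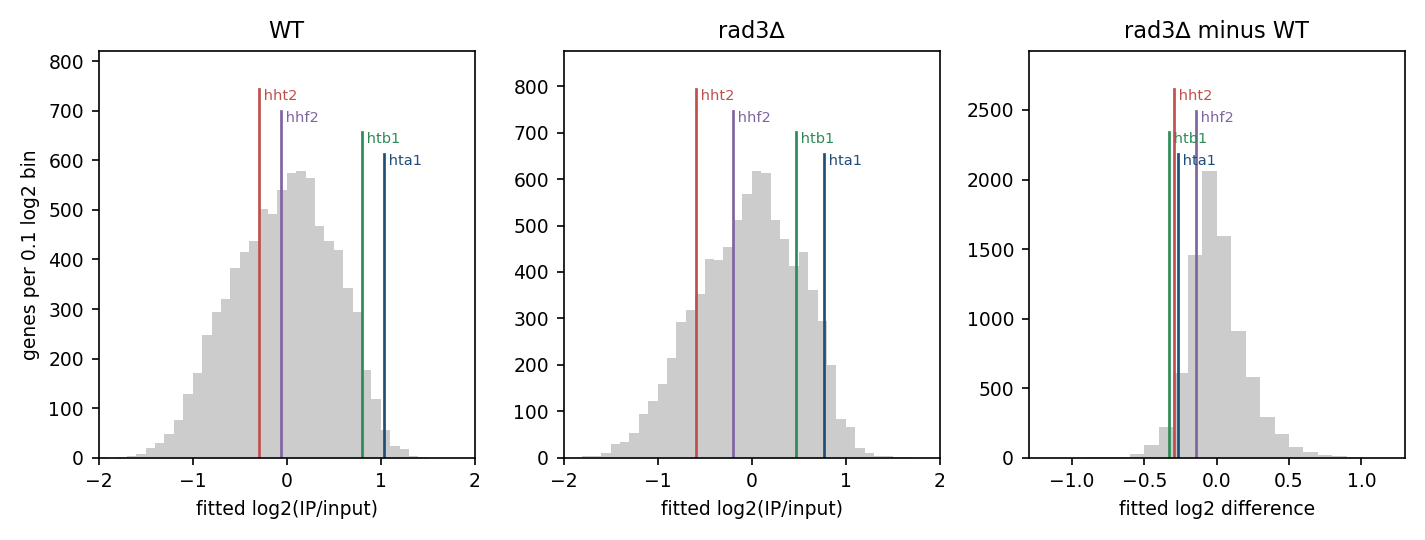
Number of genes per 0.1 log2 bin (y axis, 8196 genes) by fitted log2(IP/input) in WT (left) and rad3∆ (middle), and by the fitted difference rad3∆ minus WT (right); coloured lines mark the 4 histone genes. hta1 and htb1 lie in the upper part of the WT distribution (1.04 and 0.80), hhf2 and hht2 lie near or below its middle (-0.06 and -0.29), and all 4 differences lie between -0.33 and -0.14.

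Single probes resolved the pairs further. Around the H2A-H2B pair 16 of 22 probes were enriched in WT and 11 in rad3∆, against 18.3% of all probes in each strain, and none was depleted. Signal stayed high across both genes and into both flanks, with a median of 0.77 in WT and 0.43 in rad3∆ over the 22 probes. The highest probe in WT, at 1413671 at the 3′ end of htb1, which also lies inside the neighbouring gene sec5, read 1.28, 1.36 and 1.31 on the WT arrays and 1.11, 0.80 and 0.84 on the rad3∆ arrays. The WT values of that probe were within 0.09 of each other, and all rad3∆ values lay below them. The probe nearest the promoter, at 1412155 in the 5′ UTR of hta1, read 1.18, 1.02 and 1.44 on the WT arrays and 1.03, 1.14 and 0.79 on the rad3∆ arrays, with overlap between strains.

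Around the H4-H3 pair 1 of 21 probes was enriched in WT and 0 in rad3∆, and 5 were depleted in each strain, against 19.7% of all probes. The enriched probe, at 1364166 just beyond the 3′ end of hhf2, read 0.83, 0.68 and 0.55 on the WT arrays and 0.83, 0.28 and 0.24 on the rad3∆ arrays. Of the 5 depleted probes, 4 were shared by both strains and lay to the right of hht2, from 1366694 onward, and the fifth was a flank probe left of hhf2 in WT and the last hht2 probe in rad3∆. Of the 14 probes inside the genes, 3 lay in coding sequence (2 in htb1 and 1 in hht2) and the others in UTRs, and 8 of the 43 probes were not well above background on every array.

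**Figure D3:**
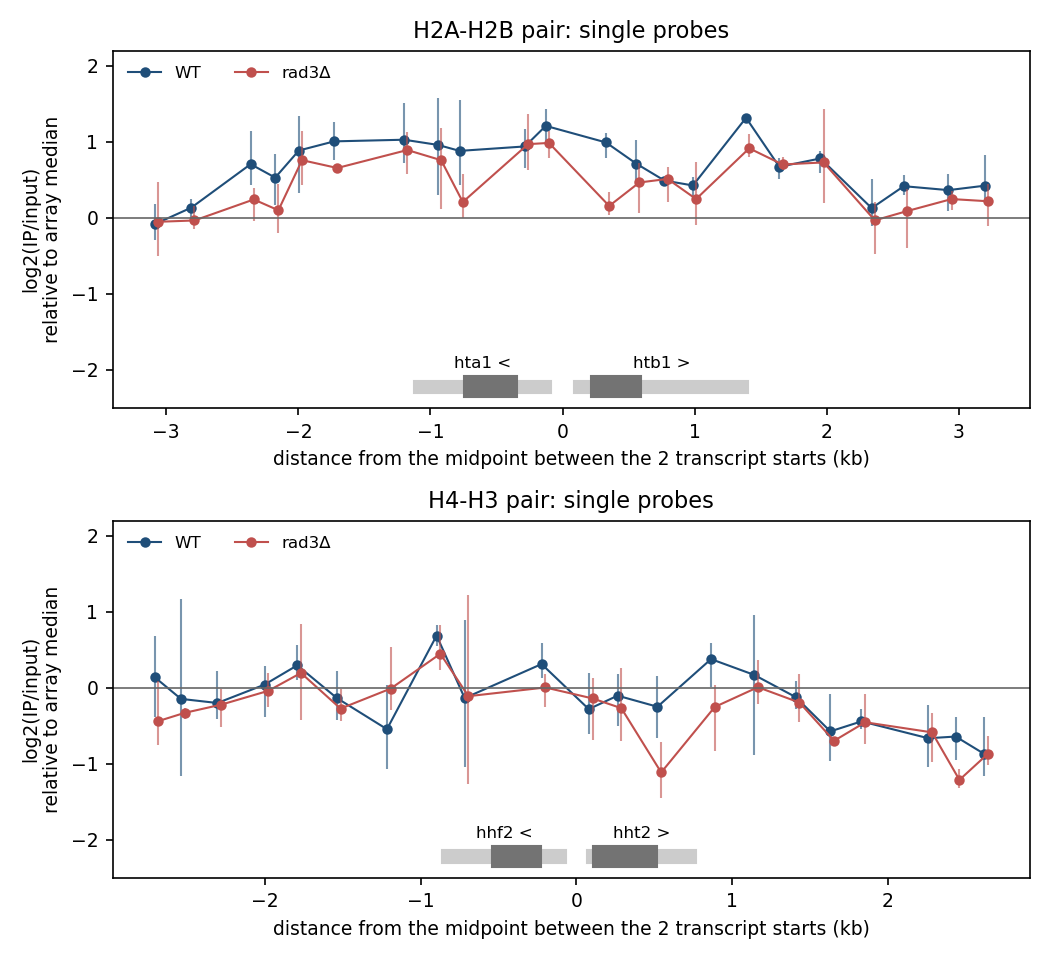
log2(IP/input), array median at 0 (y axis), of single probes by distance in kb from the middle between the 2 transcript starts (x axis), for the H2A-H2B pair (top, 22 probes) and the H4-H3 pair (bottom, 21 probes); points are means of 3 arrays, vertical lines their range, grey bars the transcripts, dark bars the coding sequences, and arrowheads the direction of transcription. The blue WT points over hta1 and htb1 are all above 0, and the largest gaps between strains within the genes are at the first htb1 coding probe and the last hht2 probe.

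The signal between the coding starts of each pair was set against the rest of its 2 genes. No probe midpoint fell between the transcript starts, so the 2 probes between the coding starts stood in for each promoter. For H2A-H2B both lay in the hta1 5′ UTR. The one at 1411997 was dim, well above background on 4 of 6 arrays in the IP and 5 in the input. The mean of the 2 probes was 1.09, 1.09 and 1.05 on the WT arrays and 1.20, 1.03 and 0.71 on the rad3∆ arrays. The 7 other gene probes read 0.65, 0.74 and 1.09 in WT and 0.21, 0.64 and 0.56 in rad3∆. The promoter side was higher on 5 of 6 arrays, but after normexp background correction on 2 of 6. For H4-H3 the promoter side read 0.16, -0.01 and -0.10 in WT and 0.16, 0.11 and -0.47 in rad3∆, and the 3 other probes read 0.02, 0.22 and -0.73 in WT and -0.70, 0.26 and -1.04 in rad3∆. It was higher on 4 of 6 arrays (6 of 6 with normexp), and neither pair thus showed a difference that held on every array under both corrections.

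In 1 kb windows the H2A-H2B pair lay in a run of 4 enriched windows (4 kb, chromosome III, 1410001 to 1414000) with the same limits in both strains. The window from 1412001, which spans the promoter, read 0.90, 0.82 and 1.19 on the WT arrays and 0.38, 0.73 and 0.50 on the rad3∆ arrays. No rad3∆ value reached the lowest WT value. The 3 probes of this window lay in the hta1 5′ UTR and the htb1 coding sequence. The strain difference was -0.22 ± 0.24 at the 5′ UTR probe (1412155). It was -0.84 ± 0.24 and -0.25 ± 0.25 at the coding probes (1412611 and 1412839). The window's fitted level of 1.0 ± 0.12 in WT was exceeded by 1.87% of windows, and that of 0.56 ± 0.12 in rad3∆ by 15.8%. The run was less firm in rad3∆: centring arrays on their mode took 3 of its windows below 0.5 (from 1410001, 0.47; from 1412001, 0.45; from 1413001, 0.50), normexp took 2 (0.39 and 0.37, from 1410001 and 1413001), loess within arrays took the window from 1413001 to 0.49, and leaving out rad3∆ array 2 took the window from 1412001 to 0.44.

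The pair was not an isolated peak. Within 10 kb on either side of it, 16 of 22 windows were enriched in WT and 12 in rad3∆, against 18.4% and 18.8% of all windows. Every one of these windows had a fitted level above 0 in both strains (0.28 to 1.25 in WT and 0.12 to 1.03 in rad3∆), and the highest, from 1419001, lay beyond the pair. Around the H4-H3 pair 0 of 21 windows were enriched and 6 were depleted in each strain, against 20.8% of all windows depleted in WT and 21.3% in rad3∆. Fitted levels there ran from -0.80 to 0.17 in WT and from -0.85 to 0.02 in rad3∆. The highest WT window of that stretch, from 1364001 (0.17 ± 0.13, not called), covered hhf2, which itself fitted at -0.06. It also held the flank probe at 1364166 (0.64 in WT). The window over hht2, from 1365001, was depleted in rad3∆ (-0.53 ± 0.12, adjusted p = 0.0029 with limma), with its 4 probes between -1.17 (at 1365584) and -0.23. Its level was -0.44, short of the threshold, both with the dye term removed and with the slide as a block in place of it, and -0.46 without rad3∆ array 1, and without rad3∆ array 3 the adjusted p was 0.10 (-0.49).

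**Figure D4:**
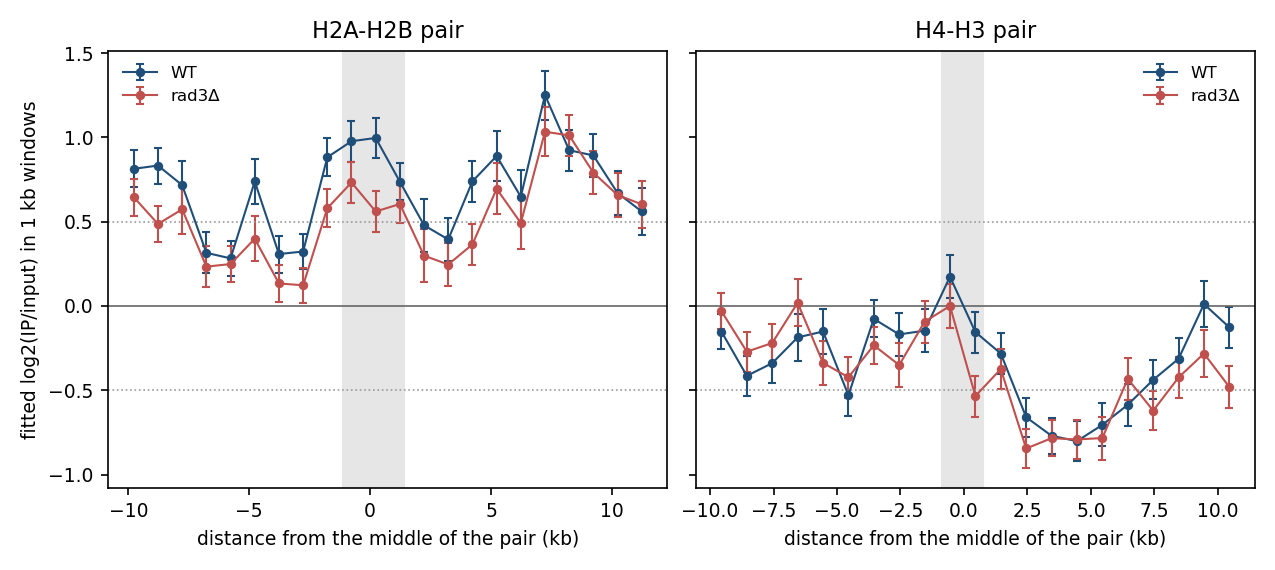
Fitted log2(IP/input) ± SE of 1 kb windows (y axis) by distance in kb from the middle of each pair (x axis) in WT (blue) and rad3∆ (red), for the H2A-H2B pair (left, 22 windows) and the H4-H3 pair (right, 21 windows); the grey band marks the pair and dotted lines lie at 0.5 and -0.5. All windows around H2A-H2B lie above 0, and those around H4-H3 lie between -0.85 and 0.17.

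The neighbouring genes differed in level. SPCC622.07, to the left of hta1 (chromosome III, 1409497 to 1410143, 2 probes), read 0.36, 0.51 and 0.99 on the WT arrays and -0.12, 0.23 and 0.41 on the rad3∆ arrays, and it was enriched in WT (0.70 ± 0.10) and not in rad3∆ (0.25 ± 0.10). sec5, which encodes a subunit of the exocyst and overlaps the 3′ end of htb1 (1413420 to 1416194), was enriched in WT (0.59 ± 0.11) and not in rad3∆ (0.35 ± 0.11). The WT call of sec5 was lost with centring on the mode (0.47) and without WT array 3 (0.55, adjusted p = 0.061 with limma). SPCC622.06C, farther left, was at the array median in both strains (0.13 ± 0.11 and 0.01 ± 0.11). On chromosome II, sfi1, which encodes a spindle pole body protein, lies to the right of hht2 (1366095 to 1368884) and was depleted in WT (-0.59 ± 0.09) and rad3∆ (-0.69 ± 0.09). Without WT array 3, and with only probes well above background, its WT level was -0.50 and just missed the threshold.

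A+T-rich stretches, which in fission yeast often coincide with replication origins, were near both pairs. They were taken as windows of 500 bases outside coding sequence with at least 72% A+T, of which merging gave 1479. The nearest to H2A-H2B (chromosome III, 1409901 to 1410850) was 0.294 kb from the pair, and 37.7% of genes had one closer, with a median distance over all genes of 1.27 kb. The nearest to H4-H3 (chromosome II, 1365601 to 1366200) overlapped hht2. The share of all genes that overlap such a stretch is not given here. The windows over these stretches averaged 0.60 in WT and 0.35 in rad3∆ at H2A-H2B and -0.22 and -0.46 at H4-H3. A relation between RPA signal and distance to such a stretch was not tested.

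The comparison of rad3∆ with WT asks whether RPA at these genes, relative to the array median, differed without Rad3. Centring each array on its median removes any rise or fall shared by the whole genome, so such a change could not be seen. All 4 fitted differences were below 0, as were 54.7% of those of all genes, and none was called. In the lists below, differences under 0 were found at 6 of 6 MCM genes, 7 of 8 strongly transcribed genes and 2 of 2 other histone genes. They were found at 5 of 12 MBF targets and 5 of 13 regulators and chaperones. No gene of 8196 was called (0.0%) with limma, although an unadjusted p under 0.05 was reached by 468 genes higher in rad3∆ and 201 lower. hta1 differed by -0.27 ± 0.14 (SE; adjusted p = 0.68 with limma), and by -0.15, -0.09 and -0.56 on slides 1, 2 and 3, where the arrays of both strains lay side by side. htb1 differed by -0.33 ± 0.14 (unadjusted p = 0.045, adjusted p = 0.60 with limma), and by -0.46, -0.10 and -0.43 on the slides. It was the one gene of the 4 whose strains did not overlap, against 4.08% of all genes with every rad3∆ array below every WT array. Over all genes, 3.25% had a lower fitted difference than htb1.

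hhf2 differed by -0.14 ± 0.24 (adjusted p = 0.94 with limma), and by 0.01, -0.09 and -0.35 on the slides. Its sign rested on single arrays, since the difference was 0.06 without WT array 2 and 0.03 without rad3∆ array 1. hht2 differed by -0.30 ± 0.17 (adjusted p = 0.71 with limma), and by -0.74, 0.17 and -0.32 on the slides, so slide 2 ran against the others. The median difference of the 4 genes was -0.28, beside -0.02 over all genes. Slide 2, which held the dim rad3∆ array 2, gave the smallest difference at hta1 and htb1 and the opposite sign at hht2, and its part in the result was not tested. Without both arrays of slide 2 the differences were -0.36 at hta1, -0.44 at htb1, -0.17 at hhf2 and -0.53 at hht2, again with no call among them (lowest adjusted p = 0.18 with limma, at hht2), while 55 genes elsewhere were called.

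At the probe level 18 of 22 differences around H2A-H2B and 16 of 21 around H4-H3 were below 0. Their medians were -0.19 and -0.12, beside -0.01 over all probes, and neighbouring probes on shared arrays are not independent. No probe of either stretch or of the genome was called (0.0% with limma, with unadjusted p under 0.05 at 1322 probes higher in rad3∆ and 882 lower). All rad3∆ arrays lay below all WT arrays at 4 and 2 probes, respectively, against 4.05% of all probes. The largest difference of the H2A-H2B stretch was at the probe centred on 1412611 in the first part of the htb1 coding sequence, which read 1.07, 0.79 and 1.12 on the WT arrays and 0.04, 0.34 and 0.10 on the rad3∆ arrays. The strains did not overlap there, with a difference of -0.84 ± 0.24 that was not called (SE; unadjusted p = 0.0049, adjusted p = 0.84 with limma), while the next htb1 probe, also in coding sequence, differed by -0.25 ± 0.25. At H4-H3 the probe centred on 1365584, at the start of the hht2 3′ UTR, read 0.15, -0.24 and -0.66 on the WT arrays and -1.46, -0.72 and -1.17 on the rad3∆ arrays (difference -0.86 ± 0.28, unadjusted p = 0.010, adjusted p = 0.92 with limma). Both probes were picked after their values were seen, and each differed in the same direction on all 3 slides.

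In 1 kb windows 20 of 22 differences around H2A-H2B (-0.44 to 0.09) and 13 of 21 around H4-H3 (-0.38 to 0.21) were below 0. The median difference over all windows was -0.022. All rad3∆ arrays lay below all WT arrays in 2 of the 22 windows, from 1403001 and 1412001, against 4.63% of all windows. Around H4-H3 they did so in the window from 1375001, while in that from 1355001 all rad3∆ arrays lay above all WT arrays. None of the 43 windows was among the 13 of 12039 called genome-wide (0.108%; 43 with the slide as a block). The rad3∆ profile kept the shape of the WT profile at both loci, with a correlation across windows of 0.868 over 22 windows and 0.789 over 21, which describes neighbouring windows on shared slides. The same test on the input channel called no gene (0.0% of 8196 with limma, with unadjusted p under 0.05 at 8 genes higher in rad3∆ and 13 lower). It did not call the deleted rad3 gene either (difference -4.01 ± 0.46, adjusted p = 0.74 with limma), so these calls do not show that the input of the strains was alike. Input differences were -0.05 ± 0.19 at hta1, -0.01 ± 0.09 at htb1, -0.23 ± 0.14 at hhf2 and -0.12 ± 0.21 at hht2 (SE).

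Other histone genes could be followed only in part. hta2, hht1 and hhf1 lie on the part of chromosome I where array and reference positions were not matched, and hht3 and hhf3 held fewer than 2 probes, which left 2 of 7. pht1, the gene of the variant H2A.Z, read -0.46 ± 0.09 in WT and -0.47 ± 0.09 in rad3∆, not called in either strain. cnp1, the gene of the centromeric H3 variant, read -0.45 ± 0.12 in WT, not called, and -0.69 ± 0.12 in rad3∆, depleted. The 3 values not called were called depleted with centring on the mode (-0.58 for pht1 and -0.57 for cnp1 in WT, and -0.58 for pht1 in rad3∆). With only probes well above background pht1 was depleted at -0.74 in WT and -0.59 in rad3∆. Each of the 3 also passed when 1 array was left out: pht1 in WT without WT array 3 (-0.55), cnp1 in WT without WT array 1 (-0.61) and pht1 in rad3∆ without rad3∆ array 1 (-0.52). The coding sequences of the copies were close to those of the 4 genes, with 86.5% identity between hta1 and hta2, 91.3% between hhf2 and each of hhf1 and hhf3, and 88.8% and 88.3% between hht2 and hht1 and hht3. The longest identical stretch was 54 bases, between hhf2 and hhf3, with probes of 45 to 60 bases, and hybridization of one copy's DNA to another copy's probe was not tested.

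Of 15 genes for regulators of histone transcription and histone chaperones, 13 were measured. Each strain had 1 enriched and 3 depleted genes of this list, with medians of -0.10 in WT and -0.11 in rad3∆, and no strain difference was called. nap1, which encodes a chaperone of H2A and H2B, was enriched in WT (0.74 ± 0.11) and rad3∆ (0.56 ± 0.11), although the latter call was lost without rad3∆ array 2 (0.42) and with centring on the mode (0.45). slm9, for a subunit of the HIRA chaperone complex of H3 and H4, was the lowest of the list (-1.38 ± 0.16 in WT and -1.22 ± 0.16 in rad3∆). pcf3, for a subunit of the chaperone complex CAF-1, read -1.04 ± 0.10 and -0.77 ± 0.10. teb1, for a protein that binds the AACCCT box, read -1.04 ± 0.11 and -0.86 ± 0.11, while ams2 was near the median in both strains (0.14 and 0.16).

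Genes that share an S-phase or high expression programme were counted for comparison. Of 12 measured MBF targets (of 14), 2 were enriched and 3 depleted in WT, and 2 and 4 in rad3∆, with medians of 0.14 and 0.08. yox1, for a repressor that acts with MBF, was the highest of them (1.33 ± 0.14 in WT and 0.91 ± 0.14 in rad3∆). Of 8 measured strongly transcribed genes (of 12), 4 were enriched in WT and 3 in rad3∆ and none was depleted, with medians of 0.50 and 0.32. Those enriched in WT included tpi1 (0.86), tef3 (0.67) and adh1 (0.59), which lie on chromosome III. A link between level and transcription was not tested. adh1, for alcohol dehydrogenase, was the one of the 8 measured genes whose strains did not overlap (difference -0.33 ± 0.14, adjusted p = 0.60 with limma). Of the 6 MCM helicase genes, 1 was enriched and 1 depleted in each strain, with medians of 0.08 and 0.06.

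The protein-coding genes most like each member over the 6 arrays were found by the root mean square difference, leaving out genes within 10 kb (4130 genes compared for hta1 and htb1 and 4133 for hhf2 and hht2). For hta1 these were cox19 (0.10) and SPCC736.02 (0.102), and for htb1 rrp1 (0.0943) and tae1 (0.0982). hht2 was closest to nbr1 (0.104) and to cdm1 (0.166), which encodes a subunit of DNA polymerase delta. hhf2 had no gene as close, with sod1 (superoxide dismutase) at 0.310 and isu1 (an iron-sulfur cluster scaffold) at 0.331.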

How the data were processed

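The authors deposited 1 Agilent Feature Extraction file per array (software 10.7.1.1 for replicate 1 and 10.7.3.1 for the others, per the file headers). Per the file headers, the deposited intensity columns used here hold signals after background subtraction, spatial detrending and linear dye normalization by that software. The deposited log10 ratio is red over green; it matched the processed signals within 0.01 log2 units at 99.7% of probes or more on each array. Per the labels, IP was in the green channel in replicates 1 and 2 and in the red in replicate 3. Positions follow the array design (NCBI Feb2002 build, per the file headers). At both loci these matched ASM294v3 without an offset, judged by base composition; in 18 of 126 segments of 100 kb, all on chromosome I, an offset of 6148 to 6150 bp was found, and gene names were not used on chromosome I from 3700001 onward.

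log2(IP/input) was centred on the median nuclear probe of each array, 211 probes with an outlier flag were left out (none of the 43), and probes were averaged per annotated gene or 1 kb window (at least 2 probes). limma 3.58.1 (R 4.3.3) was fitted to all 6 arrays with a mean per strain and a dye term (3 residual degrees of freedom), two-sided, with Benjamini-Hochberg adjustment over all features, and was tested on simulated data. The dye term places fitted values midway between green and red IP arrays, so they differ from plain means. At hhf2 in WT the plain mean was 0.089 and the fitted level -0.061, a change of sign. Per the file headers, arrays with the same number shared a slide, and their deviations from the strain means correlated by 0.369, 0.321 and 0.552, so the numbers pair the arrays. The number of arrays limits the precision. Normexp used median spot signals (offset 50), since no mean signals were used here. Named are the 4 genes, protein-coding genes with an end within 2 kb, other histone genes, regulators and the genes most like each member; of the other lists up to 3 examples are named. Members and lists were chosen with earlier results of these data known.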

Additional observations from a re-analysis of the deposited data

How the results depend on the processing

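Of 220 recomputed levels and differences of the 4 genes, 202 kept their direction and their side of the threshold, 6 lost a call, 3 gained one and 9, all of hhf2, changed sign. No strain difference of the 4 genes was called under any alternative run. With a threshold of 1 the calls of htb1 in WT and of hta1 and hht2 in rad3∆ were lost, and with 0.3 htb1 was enriched in rad3∆. The level of hhf2 in WT read 0.0079 with normexp, 0.11 with loess, 0.0029 with scaled arrays, 0.089 without the dye term, 0.089 with the replicate block and -0.24 to 0.16 without single replicates, and in rad3∆ it read 0.0004 with loess. SPCC622.06C in rad3∆ turned negative at -0.056 with normexp, -0.042 with loess, -0.094 with centring on the mode, -0.018 with scaling and -0.075 without the dye term and with the block, and ranged from -0.0735 to 0.11 without single replicates. The difference of hhf2 ranged from -0.40 to 0.058. Without single replicates input differences ranged from -0.18 to 0.12 at hta1, -0.073 to 0.064 at htb1 and -0.36 to 0.047 at hht2, and that of htb1 was 0.019 with the mode and 0.079 without both replicate 2 arrays. The cause of these changes was not tested. Under the replicate block no other call of the named genes changed.

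Enriched genes in WT numbered 1451, and 966 with centring on the mode, which lay 0.0018 to 0.24 above the array medians, 614 over coding sequence, 680 among protein-coding genes alone, 2304 and 102 at thresholds of 0.3 and 1; depleted genes numbered 1729, and 822, 878 and 317 over coding sequence, among protein-coding genes and at a threshold of 1. In rad3∆ the enriched counts were 1491, and 615, 670, 2318 and 109 over coding sequence, among protein-coding genes and at 0.3 and 1, and the depleted counts 1686, and 833, 887 and 354. Fewer genes were tested over coding sequence and among protein-coding genes, an alternative added after seeing the data. Strain differences called were 0, and 55 without both replicate 2 arrays, 2 over coding sequence and 1 among protein-coding genes. Enriched windows numbered 2221 in WT and 2261 in rad3∆, and 1121 and 1148 at 2 kb, with fewer windows. Windows called for the difference were 13, and 0 with normexp, 27 with the mode, 2 with scaling, 43 with the replicate block, 8 with probes well above background, 316 without both replicate 2 arrays, 5 at 0.5 kb, 47 at 2 kb and 0 to 39 without single replicates (6, 0 and 4 without WT replicates 1, 2 and 3, and 1, 39 and 4 without those of rad3∆). For the input 4 genes were called with the mode and 0 to 2 without single replicates, and for probes 4 with loess. The planned contrast of promoter and genes had no probe between transcript starts, so limits at the coding starts were chosen after seeing the data. The mean of that contrast over arrays was 0.38 for H2A-H2B (0.26 to 0.47 leaving out 1 array) and 0.30 for H4-H3 (0.19 to 0.41). For H2A-H2B it went from 0.25 in WT and 0.51 in rad3∆ to -0.16 and 0.35 with normexp. For H4-H3 it went from 0.18 and 0.43 to 0.29 and 0.61. Leaving out either replicate 3 array gives the same difference, as the dye term then takes up the remaining red array. hhf2 could not be fitted over probes well above background, and over coding sequence of the 4 only htb1 could.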
